A study of Sus scrofa with 9 samples.

Results

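The LIM homeobox genes encode transcription factors that carry a homeodomain and a pair of zinc-binding LIM domains. The family is described here through 6 of its members, LHX1, LHX2, LHX4, LHX6, LHX8 and LHX9, in RNA sequenced from pig testis cells. The members were listed by symbol, and all 6 were found by their Ensembl pig identifiers among the 22342 genes of the tables. The family was chosen by the levels of LHX2 and LHX1, which were high in spermatocytes, so the difference between spermatocytes and spermatogonia is described below for members without a test.

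The homeodomain of these factors binds DNA, while the LIM domains bind partner proteins, above all LDB1 and LDB2, which join factors into larger complexes. LIM-only proteins such as LMO2 have LIM domains without a homeodomain and compete for the same partners, and the ubiquitin ligase RLIM marks such complexes for turnover. The family is best known from the development of brain, pituitary, limb and kidney, and from the gonad, where mice without Lhx9 fail to form gonads, mouse oocytes need Lhx8, and Lhx1 of mouse spermatogonial stem cells responds to the growth factor GDNF.

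Total RNA of cells from pig testis was sequenced in 9 libraries, labelled spermatogonia (replicates 1, 2 and 3), spermatocytes (replicates 2, 3 and 4) and round spermatids (replicates 1, 2 and 3). Spermatogonia are the mitotic germ cells, spermatocytes the cells in meiosis and round spermatids the haploid cells that follow. The columns used for spermatogonia were headed with the receptor name c-kit and those for spermatocytes with an abbreviation of pachytene. No animal is named in the labels, and the spread behind each p-value is that among libraries of a stage and may be technical.

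The libraries held 47963279 to 64639201 estimated counts, and 16802 genes passed the filter on low counts. Stages are called by their labels throughout, although markers did not follow the labels in every respect. Summed over 9 spermatocyte markers, the level was 834 to 874 CPM (counts relative to library size, scaled by TMM factors) in spermatogonia, 3016 to 3769 in spermatocytes and 243 to 323 in round spermatids. Summed over 8 markers of round spermatids, it was 2475 to 2530, 1293 to 2512 and 5160 to 7668 CPM. Not every marker followed its sum. The spermatocyte markers SPO11 and DMC1 had their highest means in spermatogonia. Of the round spermatid markers, PRM1, PRM2, TNP1, TNP2 and TSSK6 were highest in round spermatids. ACRV1 (mean 119 CPM) and SPACA1 (81.8) were highest in spermatogonia, and ACR (939) in spermatocytes. The 6 markers of peritubular myoid cells, the smooth muscle cells around the tubules, had sums of 20.2 to 21.9 CPM in spermatogonia, 8.10 to 20.1 in spermatocytes and 4547 to 5528 in round spermatids, where all 6 were at a mean of at least 1 CPM. KIT, the gene of the c-kit receptor named in the headings of the spermatogonia columns, stood at 6.22, 6.54 and 6.31 CPM in spermatogonia, 7.70, 6.64 and 8.07 CPM in spermatocytes and 25.2, 22.8 and 25.7 CPM in round spermatids. KIT RNA was thus highest in round spermatids, not in the columns headed c-kit. It was higher in round spermatids than in spermatogonia (log2 fold change 1.95, edgeR adjusted p = 2.17e-07). KIT was among 8 markers of spermatogonia. Their sums were 122 to 127 CPM in spermatogonia, 37.6 to 49.0 in spermatocytes and 82.6 to 90.3 in round spermatids. The sum was thus highest in spermatogonia, as were UCHL1, DMRT1, STRA8, FGFR3 and RET within it. Besides KIT, the means of GFRA1 (5.35 CPM in round spermatids, 0.860 in spermatogonia) and ZBTB16 (4.32 and 3.74 CPM) were highest in round spermatids. Libraries of a stage differed unevenly. The median chi-square per gene was 0.794 to 0.846 between spermatogonia libraries, 3.96 to 8.06 between spermatocyte libraries, 2.23 between round spermatids 1 and 3, and 19.1 to 20.5 between round spermatids replicate 2 and either of the others. LHX2 in round spermatids against spermatogonia is given with and without replicate 2. Other values are given with it, and the counts of alternatives include a fit without it. In such bulk libraries, fewer cells of a type and less RNA per cell cannot be told apart.

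LHX2 was the most abundant member in spermatocytes by a wide margin. It stood at 73.7 ± 14.7 TPM there (a level per unit of transcript length, mean ± SD, n = 3 libraries as in all such values), against 7.29 ± 0.247 TPM in spermatogonia. It ranked 8427 of 22342 genes by mean TPM in spermatogonia, 2287 in spermatocytes and 8019 in round spermatids. Within the summed TPM of the 6 members, LHX2 made up 37.4 ± 0.805% in spermatogonia, 79.5 ± 3.91% in spermatocytes and 28.9 ± 10.5% in round spermatids. The summed level itself was 19.5 ± 0.406, 92.4 ± 13.9 and 24.3 ± 2.06 TPM in the same order of stages.

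**Figure D1:**
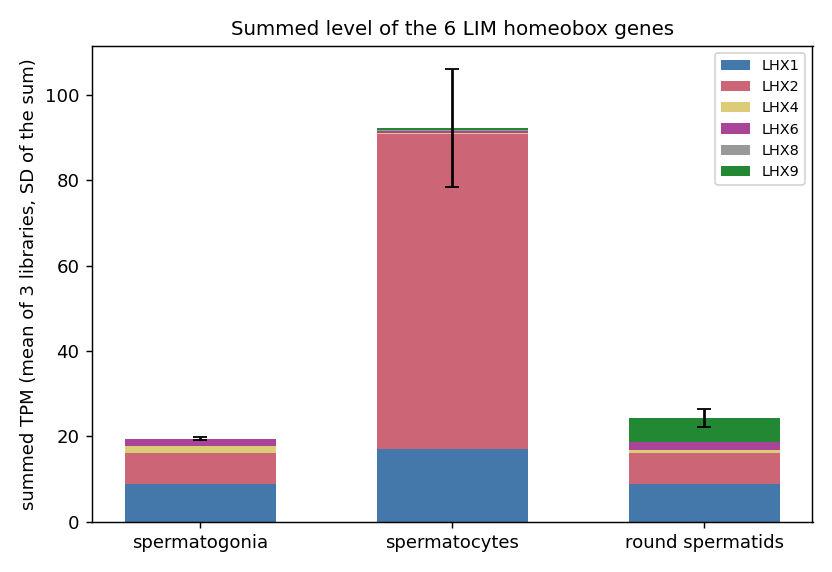
Summed TPM of the 6 LIM homeobox genes (vertical axis, bars from 0) at each labelled stage, stacked by gene; error bars are the SD of the sum over 3 libraries. The bar for spermatocytes reaches 92.4 TPM and is mostly LHX2, while LHX9 takes a visible part in round spermatids alone.

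LHX2, known in mice for the development of eye and forebrain and for hair follicle stem cells, lies on chromosome 1 from 264900931 to 264920888 on Sscrofa11.1 (ENSSSCG00000005586). Its level was 6.18, 6.34 and 6.52 CPM in spermatogonia 1, 2 and 3, 118, 84.8 and 75.7 CPM in spermatocytes 2, 3 and 4, and 14.5, 3.52 and 13.4 CPM in round spermatids 1, 2 and 3. Every spermatocyte library lay above every other library, while round spermatids replicate 2 lay below the spermatogonia and the other 2 round spermatid libraries above them. The mean in spermatocytes was 14.6 times that in spermatogonia, the 69th largest rise of 16802 tested genes. That rise is the value by which the gene was picked.

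LHX1, which in mice is needed for the head, the kidney and the female reproductive tract, lies on chromosome 12 from 38450708 to 38457583 (ENSSSCG00000017692). Its level was 11.7, 11.6 and 11.8 CPM in spermatogonia, 31.2, 32.6 and 32.9 CPM in spermatocytes and 21.5, 14.0 and 19.2 CPM in round spermatids, by replicate number. In CPM the 3 stages did not overlap, with spermatocytes highest and spermatogonia lowest. Spermatocytes held 2.75 times the mean of spermatogonia, again a description of the value used in the choice. LHX1 and LHX2 were thus the 2 members with spermatocytes above both other stages without overlap, as were 21.1% of tested genes.

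LHX9, a gene of the early gonad in mice and the closest relative of LHX2, lies on chromosome 10 from 20742323 to 20764006 (ENSSSCG00000010903). Its level was 0.0284, 0.0283 and 0.0287 CPM in spermatogonia, 0.412, 0.371 and 0.230 CPM in spermatocytes and 3.44, 2.15 and 4.41 CPM in round spermatids. These spermatogonia values rest on 2.03 to 2.05 estimated counts in each library, under the 3 counts taken as the floor. The stages did not overlap, and the order was the developmental order of the stages. Per length, LHX9 reached 5.51 ± 0.713 TPM in round spermatids, against 0.609 ± 0.143 TPM in spermatocytes.

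LHX6, a factor of cortical interneurons and of tooth and jaw in mice, lies on chromosome 1 from 262297557 to 262322777 (ENSSSCG00000005530), 2.58 Mb before LHX2. It stood at 0.753, 0.849 and 0.747 CPM in spermatogonia, 0.372, 0.0437 and 0.536 CPM in spermatocytes and 1.07, 1.37 and 1.71 CPM in round spermatids. In CPM, round spermatids lay above both other stages and spermatocytes below both. In TPM, LHX6 stood at 1.53, 1.73 and 1.51 in spermatogonia and 1.22, 2.55 and 1.89 in round spermatids, which overlapped. Spermatocytes replicate 3 held 1.63 estimated counts of LHX6. LHX9 and LHX6 were the members with round spermatids above both other stages in CPM without overlap, as were 31.3% of tested genes.

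LHX4, which with LHX3 directs pituitary and motor neuron development, lies on chromosome 9 from 121850997 to 121898622 (ENSSSCG00000015536). It stood at 1.15, 1.22 and 1.08 CPM in spermatogonia, 0.608, 0.327 and 0.517 CPM in spermatocytes and 1.10, 0.596 and 0.929 CPM in round spermatids. Spermatocytes lay below spermatogonia, and round spermatids overlapped with both.

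LHX8, the oocyte factor, lies on chromosome 6 from 138074673 to 138102025 (ENSSSCG00000003778), where 1 other annotated gene overlaps it. It had 3.75, 10.3 and 5.64 estimated counts in spermatogonia, 3.03, 1.98 and 5.06 in spermatocytes and 4.20, 4.58 and 1.03 in round spermatids. LHX8 was the only member that did not pass the filter on low counts. Without the filter, round spermatids differed from spermatogonia by a log2 fold change of -0.72 (edgeR, adjusted p = 0.359). A difference between stages was not detectable at this depth.

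**Figure D2:**
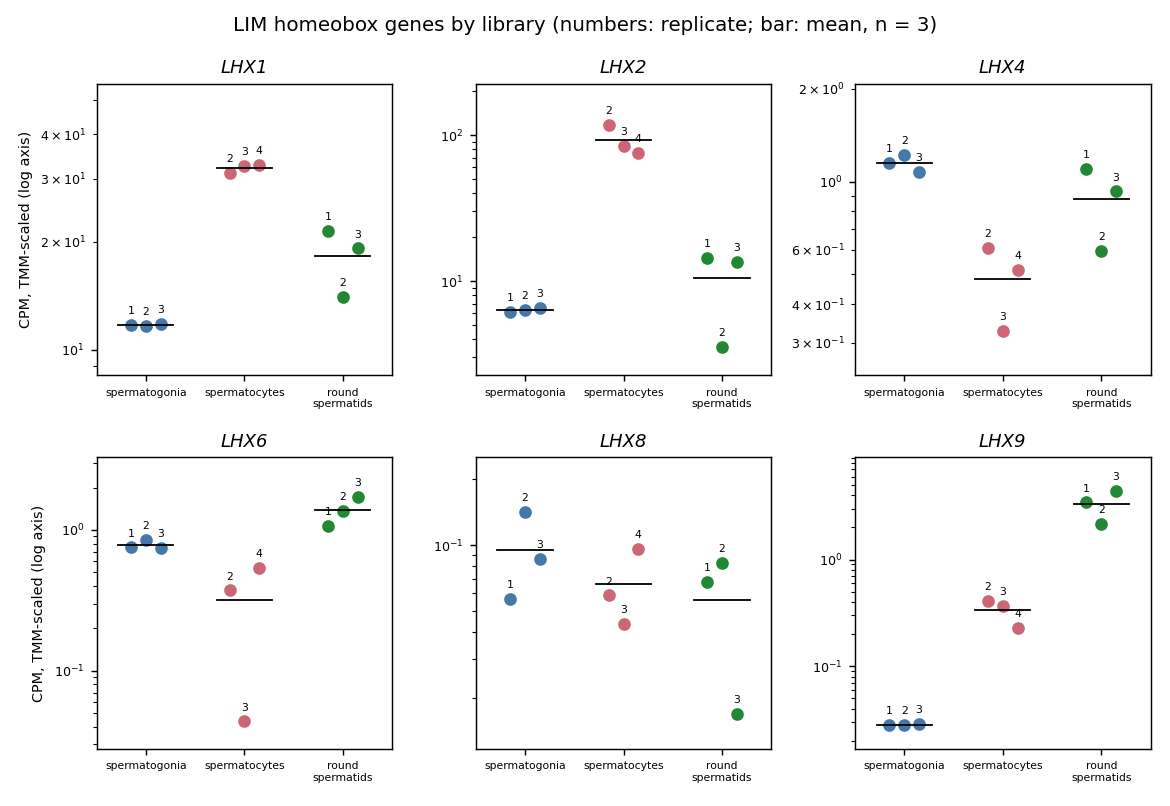
Level of each LIM homeobox gene in every library, in CPM scaled by TMM factors on a log axis, by labelled stage; numbers are replicates and bars the mean of 3. LHX1 and LHX2 are highest in spermatocytes, LHX6 and LHX9 in round spermatids, and round spermatids replicate 2 sits lowest of its stage for LHX1, LHX2, LHX4 and LHX9.

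In order of TPM, LHX1 came before LHX2 in spermatogonia (8.89 ± 0.0767 and 7.29 ± 0.247 TPM), then LHX6 (1.59 ± 0.122) and LHX4 (1.49 ± 0.0939), which overlapped, and last LHX8 (0.133 ± 0.0680) and LHX9 (0.0762 ± 0.00124), which overlapped too. In spermatocytes LHX2 was followed by LHX1 at 17.0 ± 1.35 TPM, and LHX9, LHX6 and LHX4 followed at 0.609 ± 0.143, 0.456 ± 0.383 and 0.440 ± 0.139 TPM with overlap between neighbours. In round spermatids LHX1 (8.94 ± 0.891 TPM), LHX2 (7.15 ± 3.02) and LHX9 (5.51 ± 0.713) overlapped with their neighbours in the order, and LHX6 (1.89 ± 0.662) and LHX4 (0.729 ± 0.0731) lay below them without overlap.

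Round spermatids against spermatogonia shares the spermatogonia libraries with the difference by which LHX1 and LHX2 were picked, so the p-values of these 2 genes are not independent of that choice. LHX9 and LHX1 were higher in round spermatids, and LHX2, LHX4 and LHX6 did not pass the test. Of all 16802 genes tested, 39.5% were called higher and 39.7% lower, so 2 of 5 members higher is near the background.

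LHX9 had the larger of those rises, with a log2 fold change of 6.77 ± 0.437 (SE; edgeR's quasi-likelihood test, Benjamini-Hochberg adjusted p = 2.57e-07), the 230th largest rise of 16802. Because it rests on 594 counts in round spermatids against 6 in spermatogonia, the ratio of levels was 117 with a 95% interval of 53.3 to 319, which covers counting error only. The call held in all 20 alternatives. On the log2(TPM + 1) scale, which compresses low values, the change was 2.59.

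LHX1 was higher in round spermatids by 0.64 ± 0.151 on the log2 scale (SE; edgeR, adjusted p = 0.00267). This call held in 17 of 20 alternatives (adjusted p from 1.20e-05 to 0.986). It was lost on deposited TPM, where LHX1 averaged 8.94 ± 0.891 TPM in round spermatids and 8.89 ± 0.0767 TPM in spermatogonia, and with the spermatogonia libraries summed, where the log2 fold change was 0.56. The median log2 change of all tested genes in this comparison was 0.00 on TMM-scaled counts and -0.58 on log2(TPM + 0.1).

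LHX2 averaged 10.5 ± 6.05 CPM in round spermatids and 6.35 ± 0.174 CPM in spermatogonia, a log2 fold change of 0.72 with a 95% interval of -0.19 to 1.63 (edgeR, adjusted p = 0.127). Without round spermatids replicate 2 it was 1.14 and passed (edgeR, adjusted p = 0.000253). On log2(TPM + 0.1) it was -0.13. LHX6 averaged 1.38 ± 0.320 CPM in round spermatids and 0.783 ± 0.0574 CPM in spermatogonia, and the groups did not overlap in CPM (log2 fold change 0.82, 95% interval -0.16 to 1.79; edgeR, adjusted p = 0.110). On log2(TPM + 0.1) the LHX6 change was 0.18 and on log2(TPM + 1) it was 0.13. Without spermatocytes replicate 3, the library with nearly no LHX6, it passed at a log2 fold change of 0.81 (edgeR, adjusted p = 0.0105). LHX4 averaged 0.875 ± 0.257 CPM in round spermatids and 1.15 ± 0.0697 CPM in spermatogonia (log2 fold change -0.39, 95% interval -1.01 to 0.22; edgeR, adjusted p = 0.213), and it passed on log2(TPM + 0.1) with -0.94 (limma, adjusted p = 0.00439).

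Between round spermatids and spermatocytes, LHX4, LHX6 and LHX9 were all higher in round spermatids, while 42.7% of all tested genes were called higher and 36.4% lower. LHX9 was higher by 3.30 ± 0.324 on the log2 scale (SE; edgeR, adjusted p = 4.10e-06) and LHX6 by 2.09 ± 0.495 (adjusted p = 0.00268). The LHX9 and LHX6 calls held in all 20 alternatives each, and without spermatocytes replicate 3 the LHX6 change was 1.59. LHX4 averaged 0.875 ± 0.257 CPM in round spermatids and 0.484 ± 0.143 CPM in spermatocytes, a log2 fold change of 0.84 ± 0.303 (SE; edgeR, adjusted p = 0.0252). That call held in 13 of 20 alternatives (adjusted p from 0.00239 to 0.110) and was lost, among others, without spermatocytes replicate 3 (log2 fold change 0.63), round spermatids replicate 1 (0.64) or round spermatids replicate 3 (0.79). As descriptions, LHX2 was 8.86-fold lower and LHX1 1.77-fold lower in round spermatids than in spermatocytes.

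Sertoli, myoid, endothelial and leukocyte marker sums were, like LHX9, highest in round spermatids. Between spermatogonia and spermatocytes, where LHX9 was higher in spermatocytes, the Sertoli and myoid sums were lower there, the endothelial sums overlapped and the leukocyte sums were higher. The myoid sums nearly met, at 20.1 and 20.2 CPM, and DES had a higher mean in spermatocytes. Most of the higher leukocyte sum was AIF1 (1.46 ± 0.274 CPM in spermatocytes, 0.465 ± 0.0655 in spermatogonia). PTPRC and CD14 had slightly higher means in spermatocytes, and CD68, CSF1R and CD163 lower ones. Of 13 Sertoli cell markers, 9 were at a mean of at least 1 CPM in spermatogonia, 5 in spermatocytes and 11 in round spermatids, and their sums were 309.6 to 321, 48.9 to 69.5 and 2574 to 2729 CPM; the Sertoli hormone gene AMH was at 0 in spermatocytes. Endothelial marker sums were 10.1 to 11.5, 4.80 to 17.4 and 171 to 193 CPM, and leukocyte marker sums 1.87 to 2.26, 2.77 to 3.77 and 24.6 to 31.8 CPM, in the same order. Leydig cell marker sums went another way, with 307 to 326 CPM in spermatogonia, 6.50 to 8.37 in spermatocytes and 48.6 to 53.4 in round spermatids. Within the Leydig list INSL3, CYP17A1, CYP11A1, STAR and LHCGR were highest in spermatogonia. HSD17B3 (11.4 ± 2.09 CPM) and NR5A1 (21.4 ± 5.30 CPM) were highest in round spermatids. Most of the Sertoli sum in round spermatids came from VIM (1535 ± 102 CPM) and CLU (804 ± 49.0 CPM). The part of these cells in the LHX9 result was not tested.

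Regulators of the early gonad that act beside Lhx9 in mice were mostly higher in round spermatids. Of 12 listed genes, 10 were higher and 2 lower than in spermatogonia (39.5% and 39.7% of all genes), with a median log2 fold change of 2.92, against 0.00 over all genes. Against spermatocytes 11 were higher and 1 lower (42.7% and 36.4% of all genes). AMH, a hormone gene on this list, passed the filter only through round spermatids, where it was high. It had 36.7 to 109 estimated counts there and at most 14.1 in other libraries, so its calls add no support. EMX2, a homeobox gene of the urogenital ridge, had the stages in the same order as LHX9: 0.0905 ± 0.0508 CPM in spermatogonia, 0.394 ± 0.0517 in spermatocytes and 2.54 ± 1.31 in round spermatids, higher in round spermatids than in spermatogonia (edgeR, adjusted p = 1.16e-05). WT1, a zinc finger factor of Sertoli cells and their precursors, averaged 56.5 ± 21.2 CPM in round spermatids and 10.6 ± 0.284 in spermatogonia (edgeR, adjusted p = 3.57e-05). SOX9, a transcription factor gene of Sertoli cells, averaged 85.0 ± 26.1 CPM in round spermatids and 1.68 ± 0.120 in spermatogonia (edgeR, adjusted p = 1.73e-07). CBX2, a Polycomb protein gene, was lower, with 4.12 ± 0.868 CPM in round spermatids against 11.8 ± 0.286 in spermatogonia (edgeR, adjusted p = 1.68e-05).

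**Figure D3:**
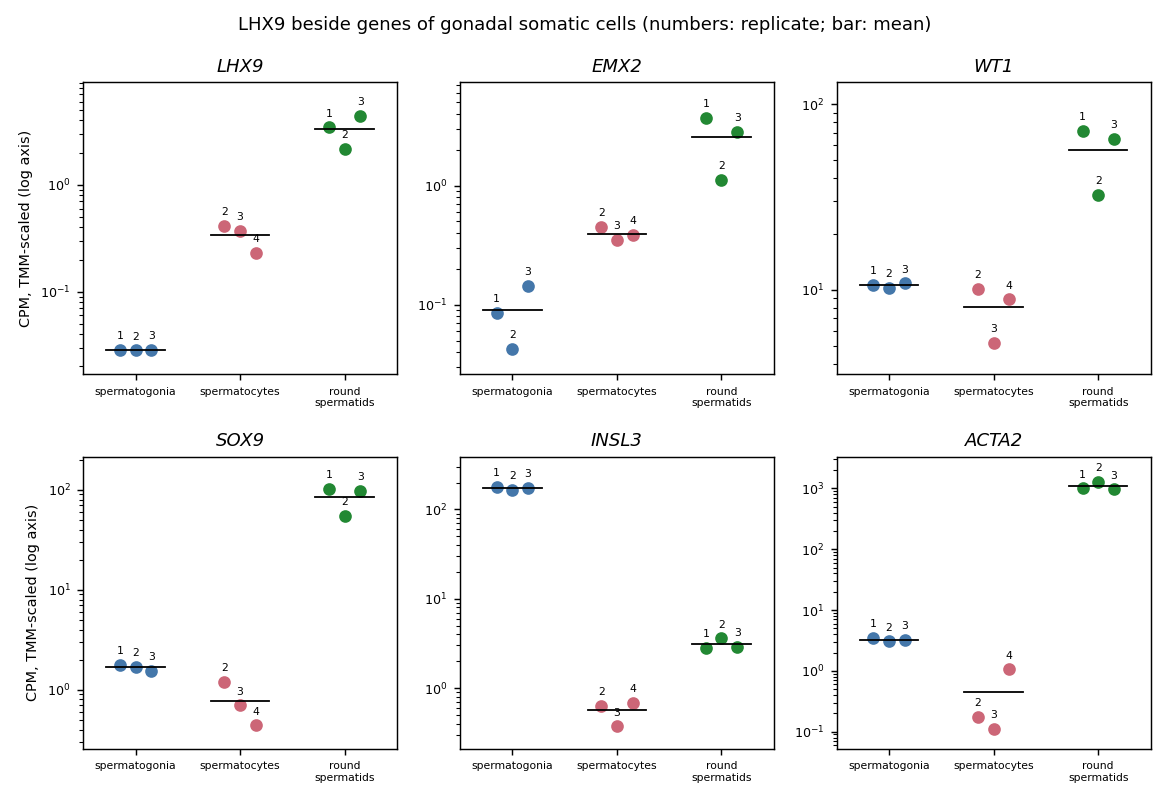
LHX9 beside 5 genes of gonadal somatic cells in every library, in CPM scaled by TMM factors on log axes, by labelled stage; numbers are replicates and bars the mean of 3. LHX9, EMX2, WT1, SOX9 and the smooth muscle actin gene ACTA2 are highest in all 3 round spermatid libraries, whereas the Leydig cell gene INSL3 is highest in spermatogonia.

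The other 6 LIM homeobox genes complete the family's close pairs, which are LHX1 with LHX5, LHX2 with LHX9, LHX3 with LHX4, LHX6 with LHX8, ISL1 with ISL2, and LMX1A with LMX1B. Whether reads were shared within pairs in counting was not tested. LMX1B was the gene of these 6 with spermatocytes above both other stages without overlap, as LHX1 and LHX2 were. Against spermatogonia, 5 of the 6 were lower and 1 was higher in round spermatids, with a median log2 fold change of -1.92 (39.7% of all genes lower, 39.5% higher), and again 5 were lower and 1 higher in spermatocytes, where the background was 44.0% lower and 29.3% higher. In round spermatids against spermatocytes 1 was higher, 2 lower and 3 did not pass. The higher gene was LMX1A, whose mean in round spermatids lay under the floor. ISL2 and LMX1A, both among the 5 lower than in spermatogonia, passed the filter only through spermatogonia, where they were high. They had 18.1 to 24.6 and 13.0 to 17.4 estimated counts there, and at most 6.69 and 2.45 in other libraries. Their lower calls are thus not independent of the filter and add no support.

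ISL1, a factor of motor neurons, heart and pancreas, was the most abundant family gene in spermatogonia, at 10.5, 11.8 and 9.46 TPM by library, above every LHX1 value there. It averaged 9.22 ± 1.02 CPM in spermatogonia, 5.57 ± 0.684 in spermatocytes and 2.36 ± 0.374 in round spermatids, and was lower in spermatocytes than in spermatogonia (edgeR, adjusted p = 0.00243) and lower in round spermatids than in spermatocytes (edgeR, adjusted p = 6.03e-05). LHX5, the relative of LHX1, averaged 0.343 ± 0.176 CPM in spermatocytes and 1.34 ± 0.118 in spermatogonia (edgeR, adjusted p = 0.000391), the opposite direction to LHX1. LHX3 averaged 0.149 ± 0.0422 CPM in spermatocytes and 0.973 ± 0.0657 in spermatogonia (edgeR, adjusted p = 2.16e-05). LMX1B, which patterns limb and kidney, stood at 14.0, 13.4 and 13.7 CPM in spermatogonia, 25.6, 26.8 and 27.1 CPM in spermatocytes and 20.7, 17.0 and 21.5 CPM in round spermatids. It was higher in spermatocytes than in spermatogonia (edgeR, adjusted p = 4.74e-05), a call lost on deposited TPM. It lies 2.29 Mb after LHX2 on chromosome 1. LMX1A had no counts in spermatocytes, at least 3.61-fold lower than its 0.219 ± 0.0311 CPM in spermatogonia when set against a floor of 3 counts per library.

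Of 8 cofactor and LIM-only genes measured, 6 were lower, 1 higher and 1 did not pass in spermatocytes against spermatogonia (median log2 fold change -1.38, and -0.32 over all genes), and 7 were higher and 1 did not pass in round spermatids against spermatocytes (2.31, and 0.19 over all genes). In round spermatids against spermatogonia 6 were higher and 2 lower (1.64, and 0.00 over all genes). Over all genes, in the same order of comparisons, 44.0%, 36.4% and 39.7% were lower and 29.3%, 42.7% and 39.5% higher. LDB1, the main bridging partner, stood at 31.0, 30.3 and 32.4 CPM in spermatogonia, 14.4, 13.6 and 12.6 CPM in spermatocytes and 54.6, 82.2 and 57.7 CPM in round spermatids. LDB1 was thus lowest in the libraries where LHX2 was highest, with no overlap between stages in CPM. In TPM, round spermatids (14.3, 35.1 and 14.8) overlapped with spermatogonia (14.4, 14.3 and 15.2). Spermatocytes lay below both in TPM too (4.52, 4.31 and 4.38). Spermatocytes differed from spermatogonia by -1.21 ± 0.157 on the log2 scale (SE; edgeR, adjusted p = 6.15e-05). SSBP3, which stabilises LDB proteins, averaged 4.02 ± 0.902 CPM in spermatocytes and 16.1 ± 0.661 in spermatogonia (edgeR, adjusted p = 2.61e-06), and SSBP4, its relative, 17.4 ± 0.820 and 73.9 ± 0.962 (edgeR, adjusted p = 1.34e-06). RLIM was the gene higher in spermatocytes, at 13.8 ± 3.89 CPM against 6.63 ± 0.194 in spermatogonia (edgeR, adjusted p = 0.000556), a call lost on deposited TPM.

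LDB2, the second bridging partner, had a mean of 0.504 ± 0.119 CPM in spermatogonia, 0.361 ± 0.268 in spermatocytes and 22.7 in round spermatids, and was higher in round spermatids than in spermatocytes (edgeR, adjusted p = 2.98e-07) and than in spermatogonia (adjusted p = 4.89e-07). The LIM-only gene LMO2, known from blood and endothelial development, averaged 7.41 ± 1.57 CPM in round spermatids and 1.74 ± 0.0898 in spermatogonia (edgeR, adjusted p = 0.00638), a call lost with DESeq2, on log2(TPM + 0.1) and with the spermatogonia libraries summed. Both were highest in round spermatids, as were the endothelial marker sums given above, whose part was not tested. LMO1 averaged 0.375 ± 0.0932 CPM in round spermatids and 1.18 ± 0.108 in spermatogonia (edgeR, adjusted p = 0.000297).

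**Figure D4:**
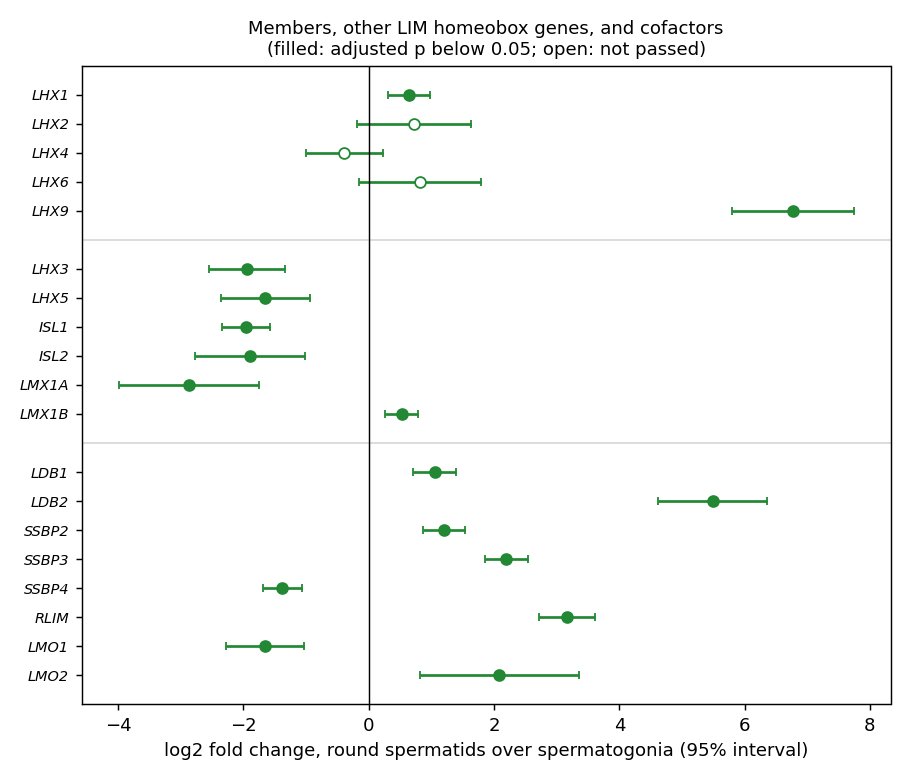
Log2 fold change of round spermatids over spermatogonia with its 95% interval (horizontal axis) for the 5 tested members, the other 6 LIM homeobox genes and 8 cofactor or LIM-only genes; filled points passed the test. LHX9 and LDB2 lie farthest to the right, and 5 of the other 6 LIM homeobox genes lie to the left of 0.

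LHX1 was also set beside genes of GDNF signalling in spermatogonial stem cells. Of 12 measured, 2 were higher, 5 lower and 5 did not pass in spermatocytes against spermatogonia, with a median log2 fold change of -0.75 and a background of 29.3% higher and 44.0% lower. In round spermatids against spermatocytes 10 were higher, 1 lower and 1 did not pass, with a median of 3.39 and a background of 42.7% higher and 36.4% lower. In round spermatids against spermatogonia 8 were higher, 3 lower and 1 did not pass, with a median of 3.13 and a background of 39.5% higher and 39.7% lower. The largest of these rises were ID4 (mean 105 against 1.03 CPM), SPRY4 (104 against 1.09), DUSP6 (93.5 against 1.74) and EGR2 (69.9 against 1.71). Myoid, Sertoli, endothelial and leukocyte marker sums were highest in round spermatids too, and the part of such cells in these rises was not tested. ETV5, a transcription factor gene induced by GDNF in mice, was the gene lower in round spermatids than in spermatocytes: it averaged 171 ± 3.15 CPM in spermatogonia, 274 ± 36.5 in spermatocytes and 62.6 ± 4.13 in round spermatids. It was higher in spermatocytes than in spermatogonia (edgeR, adjusted p = 0.000352), as LHX1 was in level, but that call was lost on deposited TPM and with no normalization factors. The GDNF receptor gene RET averaged 1.43 ± 0.130 CPM in spermatocytes and 12.4 ± 0.230 in spermatogonia (edgeR, adjusted p = 6.75e-07), and its partner GFRA1 averaged 0.326 ± 0.0707 and 0.860 ± 0.0984 CPM (edgeR, adjusted p = 0.000308). BCL6B, another GDNF-induced gene of mice, averaged 2.63 ± 0.522 CPM in round spermatids and 0.218 ± 0.0348 in spermatogonia (edgeR, adjusted p = 3.66e-06).

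LHX8 was set beside genes that act with Lhx8 in mouse oocytes, most of them transcription factors. Of 8 measured, 5 were lower, 2 higher and 1 did not pass in round spermatids against spermatocytes, where 36.4% of all genes were lower and 42.7% higher. Against spermatogonia 4 were lower, 2 higher and 2 did not pass, where 39.7% of all genes were lower and 39.5% higher. The 2 higher genes in both comparisons were the receptor gene KIT, given above, and KITLG, the gene of its ligand, which stood at 0.522 ± 0.0139 CPM in spermatogonia, 0.893 ± 0.819 in spermatocytes and 49.1 ± 6.22 in round spermatids. NOBOX, an oocyte homeobox gene, averaged 0.523 ± 0.0829 CPM in spermatogonia, 0.668 ± 0.220 in spermatocytes and 0.112 ± 0.0934 in round spermatids. FIGLA, which activates zona pellucida genes, averaged 0.456 ± 0.0512, 0.744 ± 0.231 and 0.196 ± 0.0497 CPM in the same order, and SOHLH2, a factor of early germ cells, 62.5 ± 1.39, 73.7 ± 1.65 and 24.2 ± 0.566 CPM. All 3 were lower in round spermatids than in spermatocytes (edgeR, adjusted p = 0.000575 for NOBOX, 0.000357 for FIGLA and 6.98e-08 for SOHLH2).

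LHX2 and LHX9 lie in matching surroundings on Sscrofa11.1. The nearest measured protein-coding genes with a symbol were DENND1A, 77.6 kb before LHX2, and NEK6, 158 kb after it, and DENND1B, 107 kb before LHX9, and NEK7, 203 kb after it. DENND1A and DENND1B encode activators of a RAB GTPase, and NEK6 and NEK7 encode related mitotic kinases. DENND1A stood at 41.7, 41.0 and 41.8 CPM in spermatogonia, 26.5, 26.8 and 31.2 CPM in spermatocytes and 20.4, 13.7 and 21.0 CPM in round spermatids. It thus lay lower in spermatocytes than in spermatogonia, opposite to LHX2 (log2 fold change -0.56 ± 0.160 SE; edgeR, adjusted p = 0.00917), a call lost with no filter and with the spermatogonia libraries summed. NEK6 averaged 2.25 ± 0.439 CPM in spermatocytes and 4.27 ± 0.254 in spermatogonia (edgeR, adjusted p = 0.000748), also lower where LHX2 was high. Beside LHX9, DENND1B averaged 51.3 ± 3.13 CPM in round spermatids and 32.7 ± 0.956 in spermatogonia (log2 fold change 0.65), and NEK7 23.0 ± 1.34 and 15.8 ± 1.24 CPM (0.55). Both passed (edgeR, adjusted p = 0.00384 and 0.000932) and both calls were lost on deposited TPM and with the spermatogonia libraries summed, where NEK7 on log2(TPM + 0.1) was -0.06. These neighbours were chosen after the members' values were seen.

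**Figure D5:**
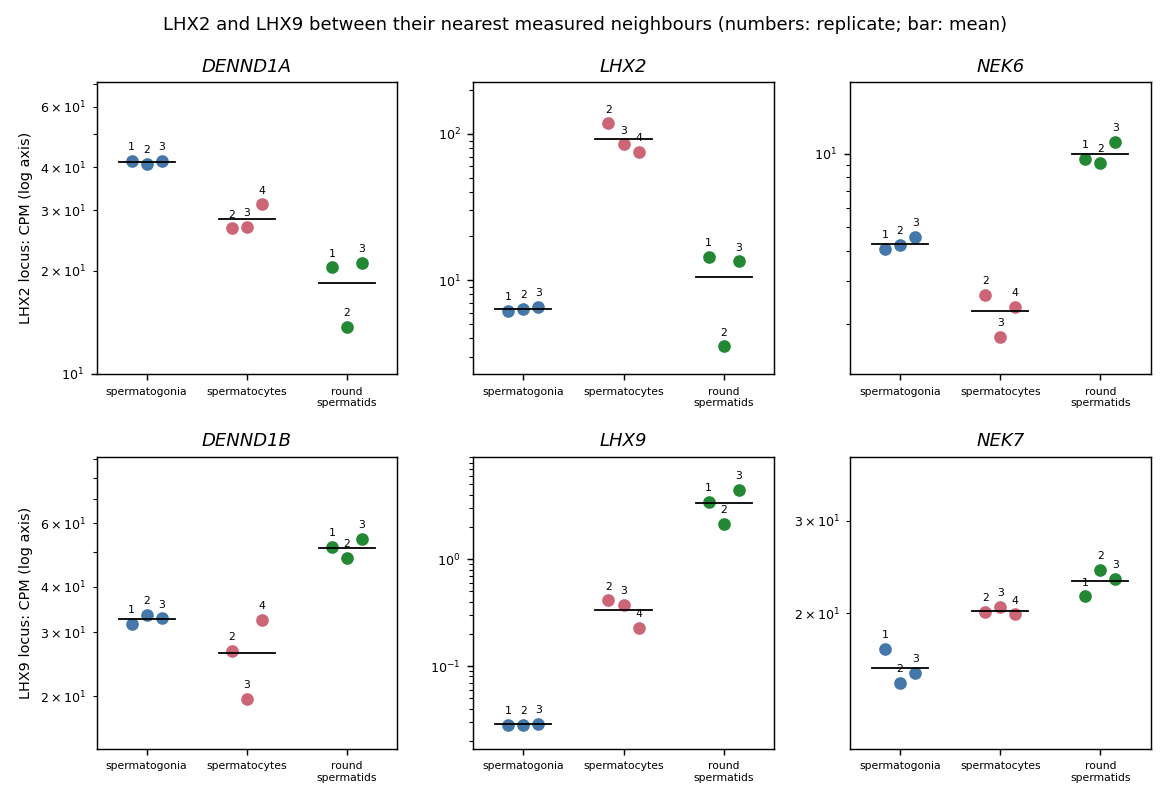
LHX2 with its neighbours DENND1A and NEK6 (upper row) and LHX9 with its neighbours DENND1B and NEK7 (lower row) in every library, in CPM scaled by TMM factors on log axes; numbers are replicates and bars the mean of 3. The LHX2 peak in spermatocytes is not seen in DENND1A or NEK6, and DENND1B and NEK7 vary far less over the stages than LHX9.

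MRM1 lies 307 kb before LHX1 and averaged 38.1 ± 1.26 CPM in spermatocytes and 40.0 ± 1.04 in spermatogonia, without the rise of LHX1. Next to LHX1 on the other side, AATF, which encodes a nucleolar factor, starts 4.22 kb after the gene. It averaged 81.5 ± 2.69 CPM in spermatocytes and 44.7 ± 1.16 in spermatogonia, higher as LHX1 was (log2 fold change 0.87 ± 0.119 SE; edgeR, adjusted p = 8.84e-05), a call lost on deposited TPM. Next to LHX6, MORN5 ends 2.42 kb before the gene and averaged 30.1 ± 2.37 CPM in round spermatids and 85.2 ± 5.26 in spermatogonia (edgeR, adjusted p = 8.91e-06), while RBM18, an RNA-binding protein gene 10.8 kb after it, averaged 20.3 ± 2.43 and 8.31 ± 0.482 CPM (edgeR, adjusted p = 1.10e-05). The neighbours of LHX4 differed from each other as well: QSOX1, a sulfhydryl oxidase gene, averaged 66.6 ± 20.4 CPM in round spermatids and 1.21 ± 0.259 in spermatocytes, and ACBD6, an acyl-CoA binding protein gene, 37.3 ± 3.20 and 117 ± 16.7 CPM (edgeR, adjusted p = 1.57e-08 and 6.36e-07).

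Across the 9 libraries, the log2 CPM of LHX1 and LHX2 had a Pearson correlation of 0.94. The 9 libraries fall into 3 stages, so a correlation mostly restates the order of the stages. Among the 5 genes most like LHX2 were UTP23 (ribosome assembly), S100Z (a calcium-binding protein), PSIP1 (a chromatin reader) and NEDD1 (of the microtubule-nucleating ring), each with r = 0.996. S100Z had 1.37 ± 0.123 CPM in spermatogonia, 20.1 ± 4.64 in spermatocytes and 2.26 ± 1.39 in round spermatids, and like LHX2 it was lowest in round spermatids replicate 2, at 0.645 CPM. Among the 5 genes most like LHX1 were KRR1 (ribosome assembly), KIF5B (a kinesin heavy chain), ZBBX and TIPRL, with r of 0.995 to 0.997. Of 11872 genes compared, 1053 had r above 0.9 with LHX2 and 853 with LHX1, so such likeness is common among these libraries.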

How the data were processed

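RNA of 9 pig testis libraries was measured in 3 labelled stages. The authors deposited a table of estimated counts per gene and a table of TPM, per the file headers with 1 column per library; Sscrofa11.1 and bcl2fastq come from the submitters' processing notes. For aligner, quantifier, annotation and strand, the tools were not given in the sources used here, so overlapping genes and close relatives are uncertain. Columns were matched to samples by heading and replicate number, for spermatogonia and spermatocytes by what the headings mean; 6 other library columns were not used.

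Symbols came from a supplied table of Ensembl identifiers (14749 of 22342 identifiers) and coordinates from RefSeq on Sscrofa11.1 by symbol. Estimated counts were rounded, filtered with filterByExpr, scaled with TMM and fitted over all 9 libraries with edgeR 4.0.16 in R 4.3.3; calls are Benjamini-Hochberg adjusted p below 0.05, and SE is the log2 fold change over the square root of F. limma 3.58.1 and DESeq2 1.42.0 served as alternatives, and the fit was tested on simulated data. Plots used Python 3.11.15 and matplotlib 3.10.9.

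Members and lists were chosen with earlier results of these data known. Named genes were the members, genes of 6 lists, and the 5 genes most correlated with LHX2 and with LHX1 among those at a mean of at least 1 CPM. LMO3, LMO4, SALL4, SOHLH1, NKX2-1 and PITX1 were found under no symbol and were not analysed here. Some genes that the rule names are not reported here. Libraries held 47963279 to 64639201 counts, so genes under 1 CPM are the least precise, and intervals and floors cover counting error only.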

Additional observations from a re-analysis of the deposited data

How the results depend on the processing

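Each value was recomputed under 20 alternatives: other scalings, filters, tools, deposited TPM, a replicate block, only the stages compared, each library left out, and spermatogonia libraries summed. Of 300 member values, 266 kept their direction and side of the threshold or moved by less than the replicate SD, 10 lost their call, 5 gained one, 17 untested values moved by more, and 2 changed sign. The 2 were LHX2 in round spermatids against spermatogonia, at -0.13 on log2(TPM + 0.1) and -0.11 on log2(TPM + 1). LMX1B was -0.094 and -0.075 and NEK7 -0.065 and -0.057 on those scales in the same comparison, and LMX1B was 0.024 in round spermatids against spermatocytes with no normalization factors.

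The members higher in round spermatids than in spermatogonia were 2, but 1 on either TPM scale and 1 with the spermatogonia libraries summed, and 2 to 3 with single libraries left out. Genes higher in spermatocytes than in spermatogonia were 4930, but 2633 on log2(TPM + 0.1), 2604 on log2(TPM + 1) and 3229 with the spermatogonia libraries summed; the cause was not tested. Higher genes made up 40.0% of calls in that comparison, 26.8% with no normalization factors, 22.6% on log2(TPM + 0.1) and 23.4% on log2(TPM + 1), with median log2 changes of all genes of -0.32, -0.74, -0.74 and -0.41. They made up 54.0% of calls in round spermatids against spermatocytes and 65.7% with no normalization factors (medians 0.19 and 0.64), and 49.9% in round spermatids against spermatogonia, 34.7% on log2(TPM + 0.1) and 34.9% on log2(TPM + 1).

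Same-numbered libraries did not deviate together from their stage means (correlations of -0.0483 to 0.0283). This does not exclude that the numbers pair the samples, because spermatogonia libraries differed too little (median chi-square 0.794 to 0.846) for it to show. With the replicate block, genes higher in round spermatids than in spermatogonia were 6625, against 6639, and LHX4 in round spermatids against spermatocytes lost its call at 0.80. Depth limits LHX8 throughout, LHX9 in spermatogonia and LHX6 in spermatocytes replicate 3.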

Other observations

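Genes known as partners of LIM homeobox factors in pituitary and brain were mostly at low levels. Of 7 that passed the filter, 2 were higher, 1 lower and 4 did not pass in round spermatids against spermatogonia. OTX2, a forebrain and pituitary factor, averaged 1.53 ± 0.0259 CPM in round spermatids and 5.59 ± 0.290 in spermatogonia (edgeR, adjusted p = 1.56e-05), and 1.48 ± 0.457 CPM in spermatocytes.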
